A study of Arabidopsis thaliana with 26 samples.

Results

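The genes described here are those that copy DNA and those that encode the core histones of Arabidopsis thaliana. They cover the MCM helicase, the origin recognition complex (ORC), CDC45 and GINS, polymerase alpha with primase, the sliding clamp and its loader (RFC), the single-strand binding protein RPA, the E2F, DP and RBR regulators, chromatin assembly factor 1 (CAF-1), nucleotide supply, DNA methylation upkeep, and the histones H2A, H2B, H3 and H4. Members were found by locus code. Of 52 genes named, 47 had a probe set among the 16384 probe sets, for 16255 loci, on the arrays: 24 replication genes and 23 histone genes. MCM6 (AT5G44635), ORC1A (AT4G14700), RFC1 (AT5G22010) and the H4 genes AT3G45930 and AT5G59690 had no row and were not analysed here.

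Before a cell divides, ORC marks the origins and helps load the MCM ring, which CDC45 and GINS turn into the active helicase. Primase and polymerase alpha start each strand, RFC places the PCNA clamp, RPA covers single-stranded DNA, and CAF-1 puts new nucleosomes behind the fork. Many of these genes are switched on by E2F with a DP partner and held back by RBR, and canonical histone genes are transcribed mainly during S phase. Replacement histones such as H3.3 are also made outside S phase. The quiescent centre (QC) of the root tip divides rarely and is surrounded by stem cells and by a dividing meristem.

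RNA of seedling roots was measured on 26 arrays in 10 groups. In the time series, cells carrying green fluorescent protein (GFP) under the SCARECROW (SCR) promoter, which is active in the endodermis and the QC, were sorted from root tips of 250 µm. The seedlings were moved at 2 days after germination to medium with 1 µM 2,4-D, a synthetic auxin, and sampled at 0 h (3 arrays) and at 24 h, 48 h, 72 h and 96 h (2 arrays each). QC cells were sorted with GFP under the WOX5 promoter at 3 days after germination, from a separate wild type harvest, from the jkd mutant (allele jkd-4) and from wild type Col-0 grown beside it, with 3 arrays each. Excised meristems of jkd and of wild type plants of the same age gave 3 arrays each and were not sorted. JKD is a zinc finger regulator of the ground tissue, and the genotype of the jkd arrays was read from titles and source names because their descriptions mention other profiles.

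Whether replicate arrays stem from separate lots of plants is not stated in the labels. The p-values therefore cover nothing more than the scatter among these arrays, and that scatter may be technical. No cells without 2,4-D were sampled after 0 h, so the treatment cannot be told apart from the age of the seedlings. Titles of the treated arrays carry an S before the replicate number and those of 0 h do not. What the S marks is not stated, and it cannot be told apart from the treatment either. Sorted QC cells had been protoplasted and meristems had not, so these steps cannot be told apart from the cell type. In RNA of many cells, fewer cells of a type and less RNA per cell cannot be told apart. Signals of the time series and the separate QC harvest carry 1 decimal and those of the other 12 arrays 2 decimals, which may mark separate processing. Detection calls were not given in the sources used here, so a signal of a few units is given as a value and not as an expressed gene.

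Other cell types and organelle RNA moved with the groups. The 6 endodermis markers include SCR and the Casparian strip genes CASP2, CASP4 and CASP5. Their summed signal was 12621.9 to 21612.5 at 0 h, 2343.1 to 2504.7 at 24 h and 918.6 to 1417 at 96 h. At 24 h and at 96 h, 4 of the 6 were lower than at 0 h and 0 higher. SCR did not fall, with 382.6, 778.3 and 396.7 at 0 h and 663.8 and 1073.6 at 96 h. The summed signal of 6 QC niche genes was 339.3 to 541.5 at 0 h, 1632.9 to 1696.2 at 24 h and 2367 to 3401.4 at 96 h. AIL6 made up most of the 24 h sum, with 1286.5 and 1243.0. At 96 h, 3 of 5 tested niche genes were higher than at 0 h and 0 lower. AGL42 read 123.2, 134.2 and 96.7 at 0 h and 149.7 and 130.9 at 96 h. WOX5 itself was not analysed here. The mean level of plastid genes, on the log2(signal + 16) scale, was 7.08, 7.67 and 10.01 on the 0 h arrays 1, 3 and 5, 8.99 to 10.02 on treated arrays, 9.23 to 10.3 on QC arrays and 7.11 to 7.35 on meristem arrays. No signal on the tables was 0. The part of these shifts in the results below was not tested.

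Differences are given as log2 differences of signal + 16, with the standard error of the fit after ±. They understate the change of weak genes. A member passed at an adjusted p under 0.05, from limma with Benjamini-Hochberg adjustment over the 11469 probe sets tested in each comparison. Probe sets hybridise with unequal strength, so the level of a gene was not set against that of another gene. The 3 probe sets of ORC1B (AT4G12620), AT3G46320 and AT5G59970 have name endings that mark possible cross-hybridisation, and histone genes of a class resemble one another closely.

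As a class, the replication genes were lowest at 24 h and climbed back over the later times. Their mean level per array, on the log2(signal + 16) scale, was 7.26 to 7.48 at 0 h, 6.17 to 6.66 at 24 h, 6.75 to 6.81 at 48 h, 7.13 to 7.21 at 72 h and 7.03 to 7.41 at 96 h. The arrays of 24 h, 48 h and 72 h lay below all arrays of 0 h, while those of 96 h overlapped with them. The mean of all probe sets was 6.93 to 7.09 at 0 h. It was 6.68 to 6.71 at 24 h, 6.67 to 6.68 at 48 h, 6.69 to 6.8 at 72 h and 6.71 to 6.74 at 96 h, each below 0 h. The part of this shift in the levels of the members was not tested. For the replication genes, separate QC cells stood at 7.25 to 7.34 and jkd QC cells at 6.83 to 7.31. Wild type QC cells grown with jkd stood at 6.78 to 7.29. Meristems were above every sorted sample, at 7.85 to 8.01 in jkd and 7.95 to 8.10 in wild type.

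The histone genes were spread in another way. On the same scale their mean level was 9.19 to 9.60 at 0 h, 8.71 to 9.22 at 24 h, 8.82 to 9.08 at 48 h, 9.23 to 9.86 at 72 h and 9.50 to 9.79 at 96 h. The 24 h and 0 h arrays overlapped narrowly. The separate QC harvest gave 9.69 to 9.91, but jkd QC cells gave 10.16 to 10.30 and wild type QC cells grown with jkd 10.14 to 10.48. Those QC arrays overlapped with the meristems, at 10.25 to 10.46 in jkd and 10.26 to 10.75 in wild type.

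**Figure D1:**
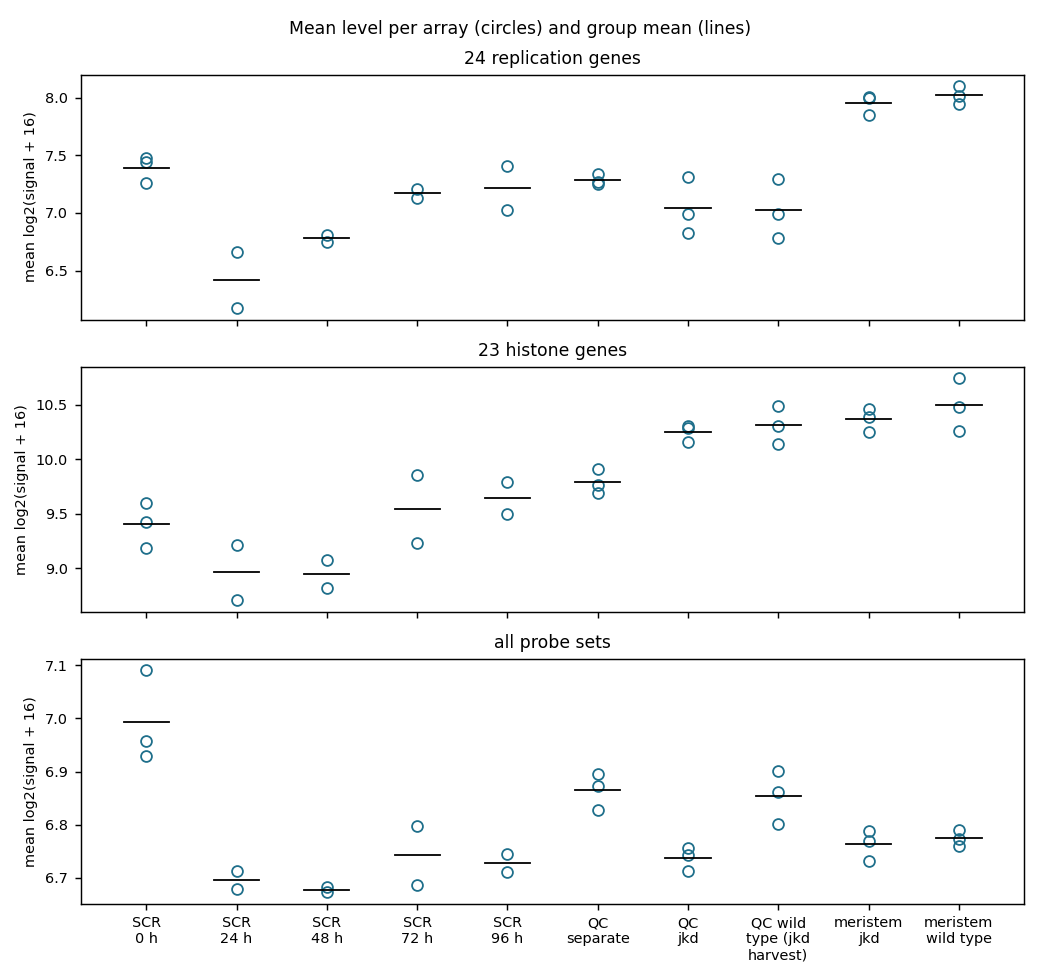
Mean level per array, as mean log2(signal + 16), of the 24 replication genes, the 23 histone genes and all 16384 probe sets, in the 10 groups along the horizontal axis; circles are arrays and lines are group means, and each panel has its own axis. Replication genes were lowest at 24 h (6.17 to 6.66) and highest in the meristems (7.85 to 8.10).

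The first comparison asked what cells marked by SCR did with these genes after 24 h on 2,4-D. More members fell than rose: 17 of 47 were lower and 6 higher, beside 27.5% lower and 20.7% higher among all probe sets tested. The share of members higher was thus below that of all probe sets, and the share lower was above it. The median difference of the members was -0.64, against -0.22 for all probe sets. Among replication genes 10 of 24 were lower and 2 higher, and among histone genes 7 of 23 were lower and 4 higher. Without the 24 h array 3, only 2 members were higher.

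TSO2 (AT3G27060), a small subunit of ribonucleotide reductase, which makes the deoxynucleotides, had signals of 48 and 42.8 at 24 h, against 606, 786 and 821 at 0 h. It fell by 3.61 ± 0.37 (adjusted p = 8.21e-06), and its groups stood far apart. FAS2 (AT5G64630), a CAF-1 subunit, read 1 and 1.2 at 24 h, against 204, 191 and 148 at 0 h, and fell by 3.52 ± 0.34 (adjusted p = 6.12e-06). In none of the 15 arrays of QC cells and meristems did FAS2 reach its 0 h level, with 0.9 to 56.9 there. HTA6 (AT5G59870), an H2A.W gene of the variant that marks heterochromatin, read 344 and 395 at 24 h, against 4193, 3639 and 4007 at 0 h, and fell by 3.36 ± 0.30 (adjusted p = 3.54e-06).

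The other replication genes that fell at 24 h act at several steps of the fork. The origin gene ORC5 (AT4G29910) fell by 2.81 ± 0.35 and the primase gene POLA3 (AT5G41880) fell by 2.45 ± 0.41. Of the RPA subunits, RPA70B (AT5G08020) fell by 2.50 ± 0.46 and RPA32B (AT3G02920) fell by 1.88 ± 0.31. The clamp gene PCNA1 (AT1G07370) had signals of 109 and 191 at 24 h, against 442, 686 and 395 at 0 h, and fell by 1.66 ± 0.37. SLD5 (AT5G49010), a GINS subunit, fell by 1.63 ± 0.42, the helicase activator CDC45 (AT3G25100) by 1.31 ± 0.36 and MET1 (AT5G49160), the maintenance DNA methyltransferase, by 0.82 ± 0.30. The helicase itself gave less: MCM3 (AT5G46280) had 62 and 78.3 at 24 h, against 60.5, 93.9 and 123 at 0 h, and the groups overlapped.

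Only DDM1 and DPB rose at 24 h among the 24 replication members. DDM1 (AT5G66750), a chromatin remodeller needed for DNA methylation, had 94.6 and 255 at 24 h, against 18.8, 2.9 and 70.5 at 0 h, a difference of 2.17 ± 0.62 (adjusted p = 0.0135). Its weak and scattered 0 h signals make this difference less precise than most. DPB (AT5G03415), a partner of E2F, rose by 0.96 ± 0.32. E2FB (AT5G22220) and RBR1 (AT3G12280) did not pass, and DPA (AT5G02470), another partner of E2F, with 110.1 and 64.5 at 24 h, against 175, 189.7 and 191 at 0 h, missed the threshold (adjusted p = 0.0534).

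Histone genes of a single class went opposite ways at 24 h. Among the H2A genes, HTA6, HTA13 (AT3G20670) by 2.22 ± 0.40 and HTA12 (AT5G02560) by 1.00 ± 0.38 fell, while HTA7 (AT5G27670), like HTA6 and HTA12 an H2A.W gene, rose by 1.40 ± 0.31. Of the H2B genes, HTB9 (AT3G45980) fell by 3.02 ± 0.36. HTB2 (AT5G22880) had 269 and 603 at 24 h, against 85.4, 57.7 and 351 at 0 h, and its difference of 1.58 ± 0.60 passed by little (adjusted p = 0.0494) with overlapping groups. The H4 gene AT3G46320 had 1494 and 2031 at 24 h, against 284, 281 and 271 at 0 h, and rose by 2.58 ± 0.27 (adjusted p = 1.04e-05). Every array other than those of 0 h gave at least 1494 for it.

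The H3.1 genes encode the form of H3 that is laid down at the fork. AT5G65360 had 214 and 382 at 24 h, against 1487, 902 and 3189 at 0 h, and fell by 2.44 ± 0.48 (adjusted p = 0.00143). AT5G10390 fell by 2.66 ± 0.39, whereas AT3G27360 rose by 1.11 ± 0.41. AT5G10400, the next gene model to AT5G10390 in RefSeq, differed by 1.07 upward and did not pass. Of the H3.3 genes, AT4G40030 fell by 1.39 ± 0.36, while its neighbour AT4G40040 had 2414 and 2567 at 24 h, against 1756, 1489 and 3205 at 0 h, and did not pass.

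**Figure D2:**
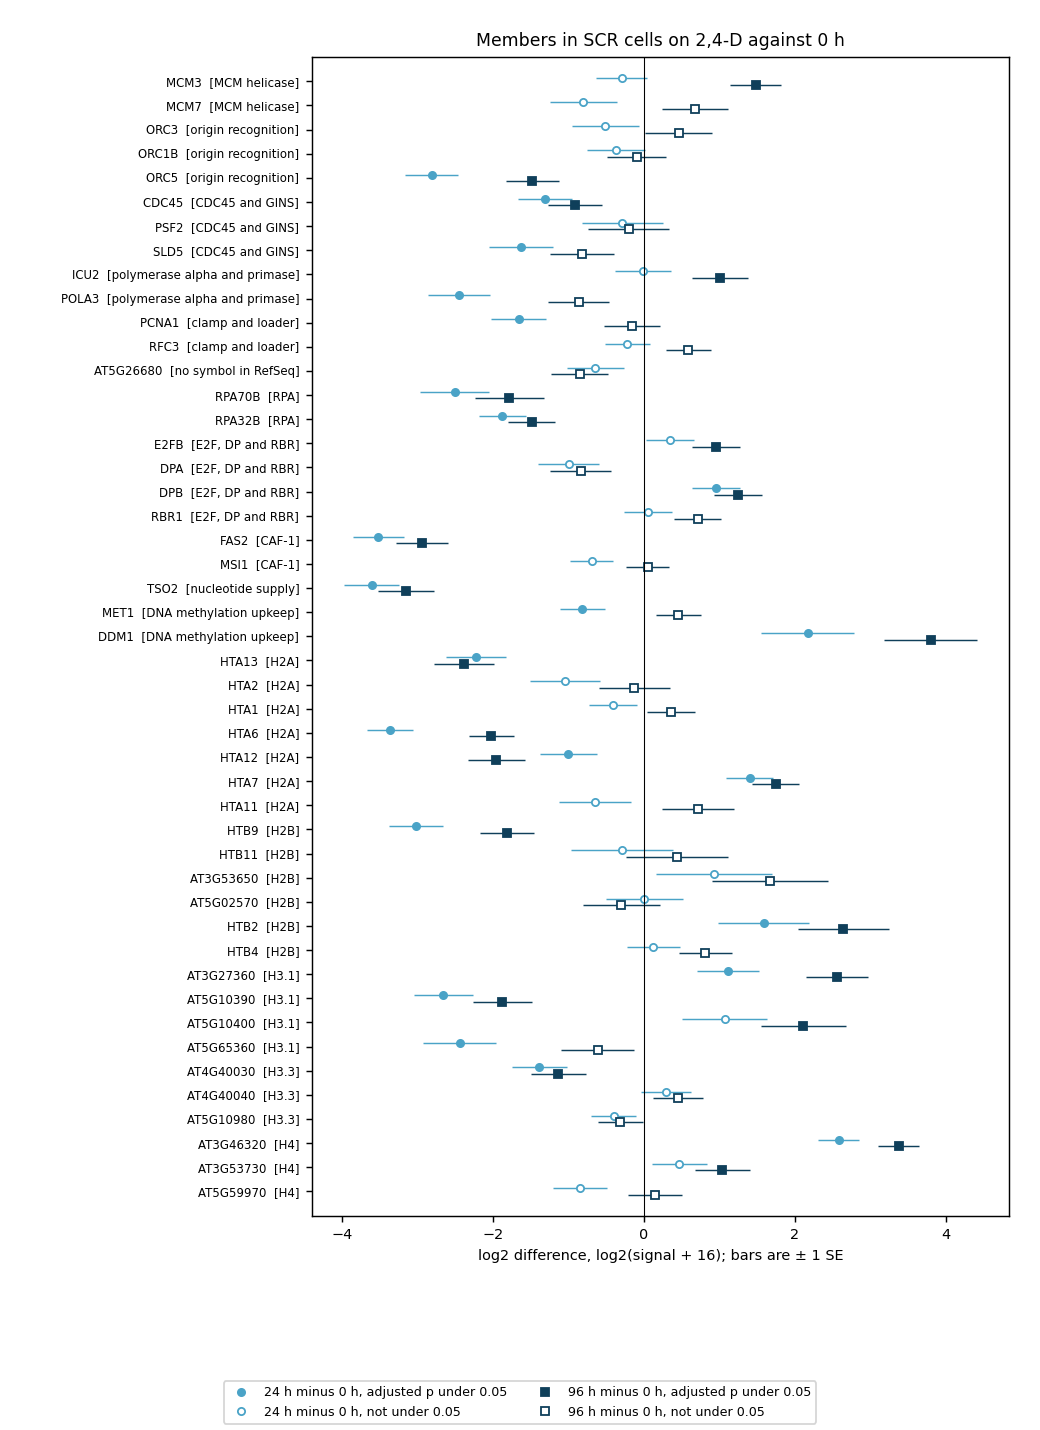
Log2 difference (horizontal axis, on log2(signal + 16)) of each of the 47 members in SCR cells at 24 h and at 96 h against 0 h, with bars of ± 1 SE; filled symbols passed at an adjusted p under 0.05. TSO2 and FAS2 lie at the far left at both times, and DDM1 and AT3G46320 at the far right at 96 h (3.80 and 3.37).

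At 48 h the counts were 17 lower and 5 higher of 47, beside 27.2% lower and 21.8% higher among all probe sets. The largest falls were those of HTA13 by 3.02 ± 0.40, HTA6 by 3.00 ± 0.30 and FAS2 by 2.77 ± 0.34. The H4 gene AT5G59970 was also lower, at -0.94 ± 0.36. AT3G46320, DDM1, DPB, AT3G27360 and HTA7 made up the 5 higher, led by AT3G46320 at 2.69 ± 0.27 and DDM1 at 2.58 ± 0.62. Without the 48 h array 2, 11 members were lower, and without the 0 h array 3, only 3 were higher.

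At 72 h, 15 members were lower and 8 higher, beside 26.4% lower and 23% higher among all probe sets. MCM3, HTB2 and AT5G10400 had joined the higher ones, with 241 and 253 for MCM3 at 72 h, against 60.5, 93.9 and 123 at 0 h, a difference of 1.32 ± 0.34. DPA and the H3.3 gene AT5G10980 were among the lower ones, by 1.20 ± 0.40 and 0.81 ± 0.30. PCNA1, POLA3, MET1 and AT5G65360 did not pass at this time. The count of members lower was 7 without the 72 h array 2 and 9 without array 3, and the time comparisons all share the 0 h arrays.

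By 96 h the members were about evenly divided: 12 were lower and 11 higher of 47, beside 27.7% lower and 24.7% higher among all probe sets. Both shares lay near those of all probe sets. The median difference was 0.05, against -0.11 for all probe sets. Replication genes had 6 lower and 5 higher, and histone genes 6 of each. Without the 96 h array 3, 6 members were higher.

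TSO2 was still far below 0 h, with 91.1 and 50.2 at 96 h, against 606, 786 and 821 at 0 h, and fell by 3.15 ± 0.37 (adjusted p = 1.58e-05). FAS2 had 10.5 and 8.5 at 96 h, against 204, 191 and 148 at 0 h, and fell by 2.94 ± 0.34. The canonical H2A gene HTA13 had 513 and 708 at 96 h, against 4720.1, 2408 and 2919 at 0 h, and fell by 2.38 ± 0.40. HTA6, HTA12, AT5G10390, HTB9, RPA70B, RPA32B, ORC5, AT4G40030 and CDC45 were the other members lower, by 0.92 to 2.02.

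DDM1 had 309.8 and 859 at 96 h, against 18.8, 2.9 and 70.5 at 0 h, and rose by 3.80 ± 0.62 (adjusted p = 0.00043). AT3G46320 had 2859.6 and 3220.0 at 96 h, against 284, 281 and 271 at 0 h, and rose by 3.37 ± 0.27 (adjusted p = 9.07e-07). HTB2 had 692 and 1063 at 96 h, against 85.4, 57.7 and 351 at 0 h, now without overlap, and rose by 2.64 ± 0.60. MCM3 rose by 1.48 ± 0.34, ICU2 (AT5G67100), the catalytic subunit of polymerase alpha, by 1.01 ± 0.37, E2FB by 0.95 ± 0.32 and DPB by 1.25 ± 0.32. HTA7 rose by 1.75 ± 0.31, and the H4 gene AT3G53730 had 5009.5 and 4576 at 96 h, against 3001, 1579 and 2649.9 at 0 h, a difference of 1.04 ± 0.36.

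H3.1 genes again lay on both sides of 0 h. AT3G27360 rose by 2.56 ± 0.41 and AT5G10400 by 2.11 ± 0.56, while AT5G10390 fell by 1.87 ± 0.39. AT5G65360 had 896 and 1244 at 96 h, against 1487, 902 and 3189 at 0 h, and did not pass. PCNA1, with 608 and 317 at 96 h, against 442, 686 and 395 at 0 h, did not pass either. No H3.3 gene rose, and AT4G40040 had 2548 and 3039.8 at 96 h, against 1756, 1489 and 3205 at 0 h, with overlapping groups.

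**Figure D3:**
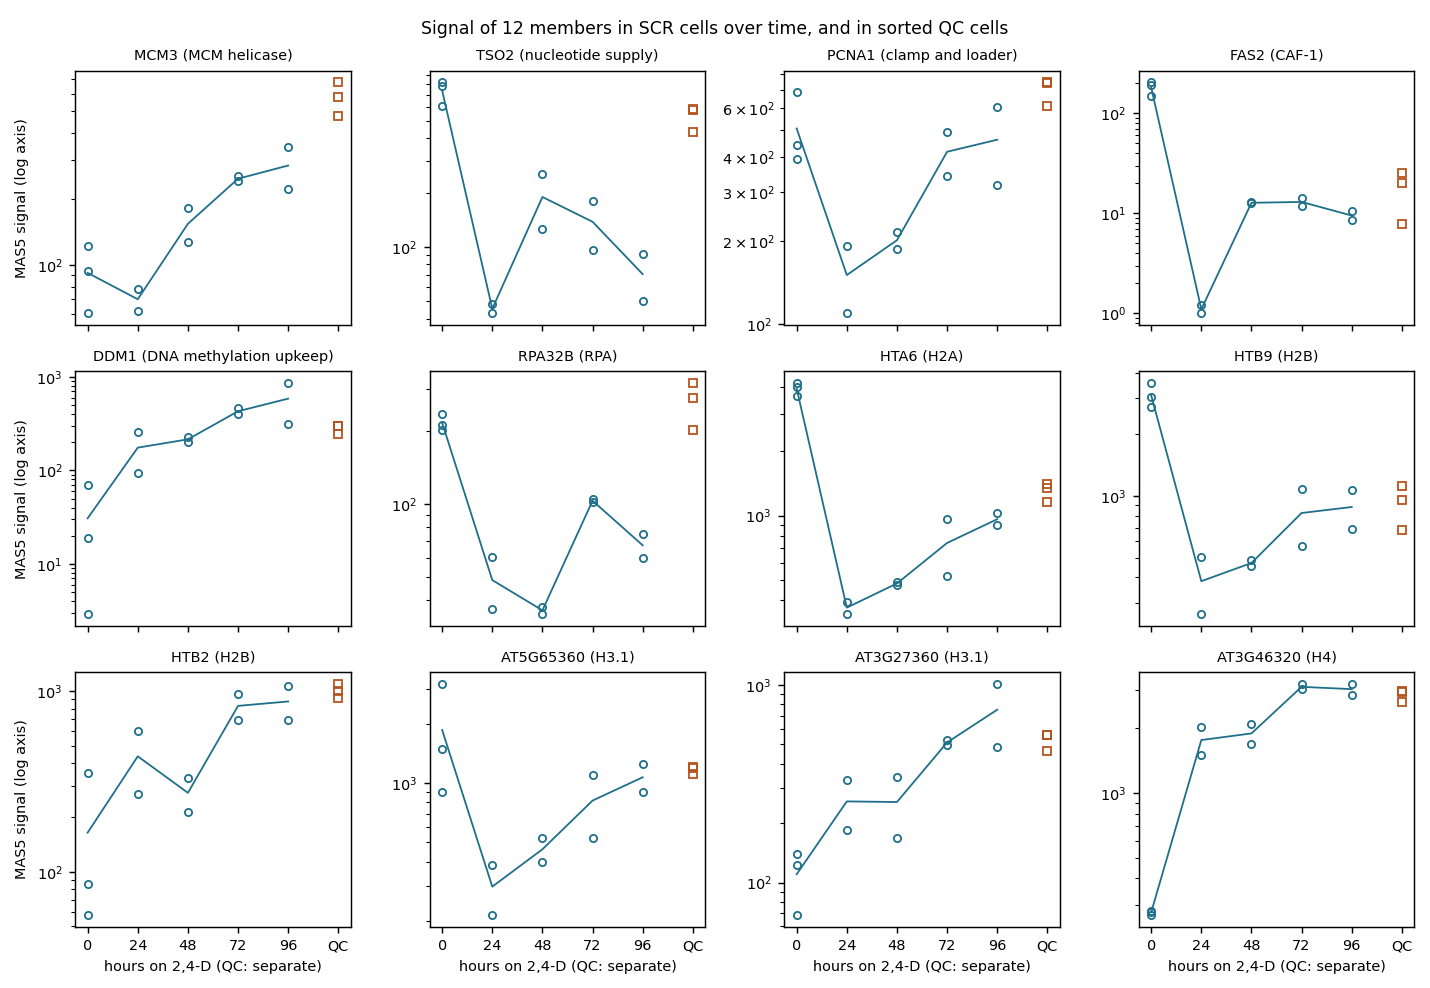
MAS5 signal on log axes of 12 members in SCR cells by hours on 2,4-D, with the separate QC harvest at the right of each panel; symbols are arrays and lines join group means. TSO2, FAS2 and HTA6 dropped at 24 h and did not return to their 0 h levels by 96 h, while AT3G46320 and DDM1 were above 0 h at every later time.

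A comparison of 96 h with 24 h takes its difference from the arrays of those times, while the 0 h arrays enter only the shared spread of the fit. It gave 3 members higher and 0 lower in limma, beside 1.97% higher and 1.89% lower among all probe sets. At an unadjusted p under 0.05 there were 18 higher and 1 lower, beside 9.53% and 6.86% of all probe sets. The median difference was 0.74, against 0.09 for all probe sets. The values at 96 h lay above those at 24 h without overlap for 30 members and below them for 1, HTA12, beside 27.6% above and 19.7% below among all probe sets. The count that passed as higher was 0 without either 96 h array or without the 24 h array 2, and 1 without the 24 h array 3. It was also 0 under quantile normalization, and 8 in a fit of all 26 arrays.

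MCM3 had 223 and 345 at 96 h, against 62 and 78.3 at 24 h, and rose by 1.78 ± 0.37 (adjusted p = 0.0177). HTA6 had 1023 and 899 at 96 h, against 344 and 395 at 24 h, and rose by 1.34 ± 0.33 (adjusted p = 0.0372). MET1 had 259 and 336 at 96 h, against 94.5 and 135 at 24 h, and rose by 1.27 ± 0.33 (adjusted p = 0.0458). PCNA1 at 1.50 ± 0.40, POLA3 at 1.58 ± 0.44 and MCM7 (AT4G02060) at 1.48 ± 0.48 did not pass (adjusted p = 0.0553, 0.0646 and 0.117). TSO2, with 91.1 and 50.2 at 96 h, against 48 and 42.8 at 24 h, stayed low at both times.

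The title of the study names a change of endodermis into QC, so SCR cells were set against the separate QC harvest, which shares their number format. Before treatment, 10 members were higher and 11 lower at 0 h than in the QC, beside 25.5% higher and 25.7% lower among all probe sets, shares near the background. At the top stood FAS2, with 204, 191 and 148 at 0 h, against 7.9, 25.5 and 20.3 in the QC, a difference of 2.57 ± 0.31. HTB9, with 3027, 2718 and 3562 at 0 h, against 683, 952 and 1121 in the QC, differed by 1.76 ± 0.30. HTA13 differed by 1.59 ± 0.33, its lowest 0 h array at 2408 and its highest QC array at 1336. Without the 0 h array 1, 6 members were higher.

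Lowest at 0 h relative to the QC was AT3G46320, with 284, 281 and 271 at 0 h, against 2956, 2651 and 2982 in the QC, a difference of -3.29 ± 0.21. DDM1 differed by -2.94 ± 0.50, with 245, 296 and 299 in the QC, and HTB2 by -2.86 ± 0.49, with 914, 1099 and 1004 in the QC. MCM3 stood at 60.5, 93.9 and 123 at 0 h, against 477, 580.2 and 679 in the QC, and differed by -2.48 ± 0.28. The H3.1 genes AT5G10400 and AT3G27360 were also lower, by 2.33 ± 0.46 and 2.15 ± 0.34, and so was the H2B gene AT3G53650, by 2.64 ± 0.62.

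After 96 h fewer members differed from the QC: 3 were higher and 6 lower, beside 13.8% higher and 16.5% lower among all probe sets. The shares of all probe sets thus fell as well, from 25.5% higher and 25.7% lower at 0 h. There were 2 arrays at 96 h and 3 at 0 h. Both comparisons with the QC share the QC arrays, and the change in the counts was not tested. Markers of other cell types differed as well. Epidermis markers summed to 27.8 to 81.5 at 96 h, against 1748.6 to 1927.5 in the QC, with all 4 lower. Of 4 root cap markers 2 were lower and 1 higher, and of 6 endodermis markers 4 were lower and 1 higher. The part of these cell types in the differences was not tested. The median difference was -0.06 at 96 h, against 0.28 at 0 h. AT3G46320, DDM1, HTB2 and AT3G27360, which had been lower at 0 h, did not pass at 96 h.

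TSO2 was the largest exception, with 91.1 and 50.2 at 96 h, against 575, 433 and 583 in the QC, a difference of -2.69 ± 0.34 (adjusted p = 2.11e-05). RPA32B had 59.7 and 75.3 at 96 h, against 202, 317 and 276 in the QC, a difference of -1.74 ± 0.29. AT5G10390 had 61.8 and 106 at 96 h, against 279, 259.6 and 280.2 in the QC, a difference of -1.57 ± 0.35. HTA12, RPA70B and MCM3 were lower as well, by 1.40 ± 0.35, 1.29 ± 0.43 and 1.00 ± 0.31. Without the 96 h array 2, only 3 members were lower.

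MET1 was above the QC, with 259 and 336 at 96 h, against 65.6, 59.2 and 68.6 in the QC, a difference of 1.95 ± 0.28 (adjusted p = 6.42e-05). E2FB had 371 and 390.2 at 96 h, against 143, 149 and 132 in the QC, a difference of 1.34 ± 0.29. HTA1 (AT5G54640), a canonical H2A gene, had 1084 and 893 at 96 h, against 387, 576 and 493 in the QC, a difference of 1.01 ± 0.30. The QC value used matters here: set against the wild type QC arrays grown with jkd, MCM3 differed by 0.17 and RPA70B by 0.16, the opposite direction.

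QC cells were next set against wild type meristems. In the separate harvest 33 of 47 members were lower and 4 higher, beside 31.3% lower and 27% higher among all probe sets. Replication genes had 18 of 24 lower and 2 higher, and histone genes 15 of 23 lower and 2 higher. The median difference was -0.80, against -0.08 for all probe sets. Leaving out any array kept 29 to 32 members lower, and the count higher was 2 without the QC array 1 or 3 or without the meristem array 2.

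PSF2 (AT3G12530), a GINS subunit, had 20.3, 25.1 and 37.2 in QC cells, against 181, 222 and 139 in the meristem, and was lower by 2.17 ± 0.24 (adjusted p = 3.95e-06). MET1 had 65.6, 59.2 and 68.6 in QC cells, against 397, 257 and 253 in the meristem, and was lower by 1.96 ± 0.22 (adjusted p = 3.71e-06). AT5G10400 had 435, 384 and 364 in QC cells, against 1933, 1124 and 1388 in the meristem, and was lower by 1.84 ± 0.19 (adjusted p = 2.3e-06). Groups did not overlap for these genes. All 4 H3.1 genes were lower, and AT5G65360 had 1189, 1108 and 1208 in QC cells, against 2681, 2029 and 2166 in the meristem.

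Each step of replication had members lower in the QC. At origins, ORC3 (AT5G16690) was lower by 1.60 ± 0.36 and ORC1B by 1.01 ± 0.21, while ORC5 did not pass. CDC45 was lower by 1.32 ± 0.36 and SLD5 by 1.24 ± 0.19, and MCM3, with 477, 580.2 and 679 in QC cells, against 1248, 941 and 1051 in the meristem, by 0.89 ± 0.18. PCNA1 had 743, 611 and 746 in QC cells, against 1486, 1226 and 1496 in the meristem, and was lower by 0.99 ± 0.16. TSO2 had 575, 433 and 583 in QC cells, against 1370.1, 811 and 1227 in the meristem, and was lower by 1.05 ± 0.20. RFC3 (AT5G27740), a clamp loader gene with the RefSeq symbol EMB2775, MCM7, POLA3, ICU2, RPA32B, RPA70B, and the CAF-1 genes MSI1 (AT5G58230) and FAS2 were lower by 0.53 to 0.84. Among the regulators DPA was lower by 1.21 ± 0.19.

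Higher in the QC were E2FB, DDM1, AT3G46320 and the H3.3 gene AT5G10980. E2FB had 143, 149 and 132 in QC cells, against 73.1, 76.1 and 109 in the meristem, a difference of 0.64 ± 0.21. DDM1 had 245, 296 and 299 in QC cells, against 157, 197 and 191 in the meristem, a difference of 0.58 ± 0.19, but it did not pass in the QC harvest grown with jkd, at -0.056. AT3G46320 had 2956, 2651 and 2982 in QC cells, against 2484, 1685 and 1949 in the meristem, a difference of 0.50 ± 0.17, and AT5G10980 differed by 0.47 ± 0.16. AT5G26680, which has no symbol in RefSeq, DPB and RBR1 did not pass.

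The wild type QC arrays grown with jkd share the number format of the meristem arrays. Against the same meristems they gave 25 of 47 members lower and 6 higher, beside 27.8% lower and 21.8% higher among all probe sets. Replication genes had 16 of 24 lower and 2 higher, close to the separate harvest, but histone genes had 9 of 23 lower and 4 higher. MCM3 was lower by 2.06 ± 0.32, DPA by 2.01 ± 0.26, RPA70B by 1.98 ± 0.35 and POLA3 by 1.75 ± 0.27. AT5G10980 was higher by 1.13 ± 0.20, AT3G53730 by 0.89 ± 0.23 and AT4G40040 by 0.61 ± 0.20. AT4G40040 was thus lower in the separate harvest, by 0.71 ± 0.17, and higher in the other, with both differences past the threshold.

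In jkd plants, 19 of 46 members tested were lower in QC cells than in the meristem and 8 were higher, beside 28% lower and 19% higher among all probe sets. Replication genes had 13 of 23 lower and 1 higher, and histone genes 6 of 23 lower and 7 higher. The count higher was 5 without the jkd QC array 1 and 2 without the jkd meristem array 1 or 3. RPA70B had 28.2, 3.89 and 7.07 in jkd QC cells, against 129.7, 166 and 194 in the jkd meristem, and was lower by 2.70 ± 0.39 (adjusted p = 0.000338). SLD5 had 31.8, 82.6 and 78.3 in jkd QC cells, against 373, 275 and 344 in the jkd meristem, and was lower by 2.17 ± 0.36. CDC45 had 6.71, 6.37 and 8.33 in jkd QC cells, against 91.8, 80.6 and 83.2 in the jkd meristem, and was lower by 2.13 ± 0.31.

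The members higher in jkd QC cells were RBR1 and 7 histone genes. AT5G10980 had 5334, 7169.7 and 5271 in jkd QC cells, against 1533, 2564 and 1505 in the jkd meristem, a difference of 1.69 ± 0.25 (adjusted p = 0.000381). HTA12 had 460.4, 155 and 175 in jkd QC cells, against 102, 73.7 and 109 in the jkd meristem, a difference of 1.19 ± 0.41. RBR1, the retinoblastoma protein gene, had 788, 513 and 486 in jkd QC cells, against 217, 404 and 269.6 in the jkd meristem, a difference of 0.98 ± 0.32. All 3 H4 members with a row were among the higher ones, although AT5G59970 turned to -0.93 under quantile normalization. AT3G53730 stood at 6156, 7606 and 7273 in jkd QC cells, against 3270.5, 3834 and 3706 in the jkd meristem. AT4G40040 and HTA7 completed the group, at 0.65 ± 0.21 and 0.64 ± 0.20.

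**Figure D4:**
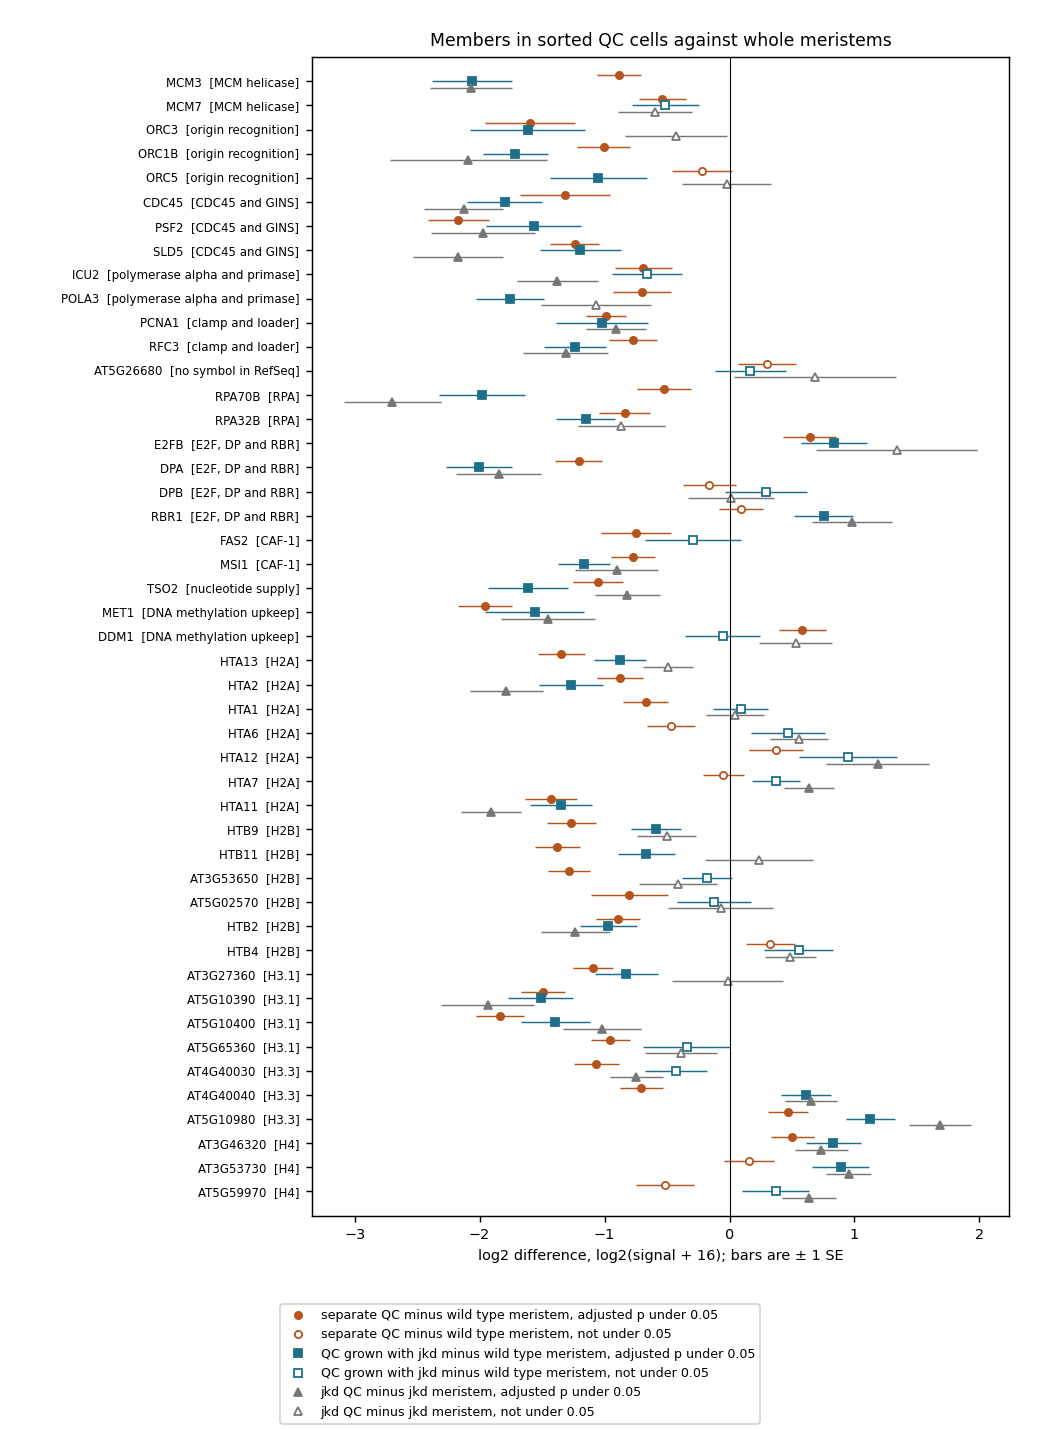
Log2 difference (horizontal axis, on log2(signal + 16)) of each member in sorted QC cells minus meristem, for the separate wild type harvest, the wild type harvest grown with jkd and jkd, with bars of ± 1 SE; filled symbols passed at an adjusted p under 0.05. Most replication genes lie left of 0 in each comparison, while the H3.3 and H4 genes at the bottom lie on both sides, with AT5G10980 at 0.47, 1.13 and 1.69.

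The 2 wild type QC harvests also differed from each other. Of 44 members tested, 3 were higher and 10 lower in the separate harvest, beside 13% higher and 10.1% lower among all probe sets. The 3 higher were the replication genes RPA70B, MCM3 and POLA3, and all 10 lower were histone genes. RPA70B had 135, 84.4 and 131 in the separate harvest, against 63.3, 20.6 and 21.2 in the harvest grown with jkd, a difference of 1.46 ± 0.39. MCM3 had 477, 580.2 and 679 in the separate harvest, against 170.2, 428 and 199 in the harvest grown with jkd, a difference of 1.17 ± 0.32. POLA3 had 155, 249 and 118 in the separate harvest, against 49.2, 83.8 and 88.2 in the harvest grown with jkd, a difference of 1.05 ± 0.34.

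AT4G40040 had 1504, 1756 and 1774 in the separate harvest, against 4259.9, 4040.3 and 4299 in the harvest grown with jkd, a difference of -1.32 ± 0.17 (adjusted p = 0.000202). AT3G53650 had 368, 307 and 419.9 in the separate harvest, against 907, 700.2 and 789.7 in the harvest grown with jkd, a difference of -1.10 ± 0.23. HTA6 had 1412, 1154 and 1353 in the separate harvest, against 1822, 3694 and 2328 in the harvest grown with jkd, a difference of -0.93 ± 0.25. AT3G53730 had 3739.6, 4368 and 5099 in the separate harvest, against 7199.6, 6749 and 7897 in the harvest grown with jkd. The 4 root cap markers summed to 1112.1 to 1285.6 in the separate harvest, against 331.0 to 551.1 in the harvest grown with jkd. In the separate harvest 2 of them were higher and 1 lower, and COBL2 read 31.9, 46.5 and 26.5, against 62.3, 160.8 and 144.7. The 6 endodermis markers summed to 2050.1 to 3105.5, against 1079.0 to 1590.0, with 3 higher and 0 lower. The part of these cell types in the differences was not tested. The counts rested on single arrays: without the separate QC array 1, 2 or 3, 1 member was higher and 2, 3 or 5 were lower. Without array 2 of the harvest grown with jkd 5 were higher, and without its array 3, 0 were higher and 6 lower.

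No member passed between jkd and wild type in either tissue. In QC cells, limma called 0 of 44 members higher and 0 lower, beside 0.0872% higher and 0.0174% lower among all probe sets, and 2 members were lower at an unadjusted p under 0.05, beside 5.88% of all probe sets lower and 3.16% higher. These were SLD5 at -1.06 ± 0.48 and HTA11 (AT3G54560), an H2A.Z gene, at -0.75 ± 0.32 (adjusted p = 0.536 and 0.482). Precision was low in the QC: the 95% interval of the difference lay within 1 on the log2 scale for 18 of 44 members. MCM3 had 347, 168 and 167 in jkd QC cells, against 170.2, 428 and 199 in wild type QC cells, with an interval of -1.12 to 0.76. AT4G40040 had 3740.0, 4229.9 and 3628 in jkd QC cells, against 4259.9, 4040.3 and 4299 in wild type QC cells, with an interval of -0.59 to 0.35.

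In meristems, limma called 0 of 47 members in either direction, beside 0.776% higher and 0.157% lower among all probe sets, and 1 member, HTB9 at -0.45 ± 0.21, was lower at an unadjusted p under 0.05, beside 3.5% of all probe sets lower and 4.54% higher. Here all 47 intervals lay within 1 on the log2 scale. TSO2 had 937, 992 and 792 in jkd meristems, against 1370.1, 811 and 1227 in wild type meristems, with an interval of -0.73 to 0.14. PCNA1 had 1441, 1107 and 1475 in jkd meristems, against 1486, 1226 and 1496 in wild type meristems, with an interval of -0.45 to 0.31. AT5G65360 had 1933, 2369.8 and 1866 in jkd meristems, against 2681, 2029 and 2166 in wild type meristems, with an interval of -0.54 to 0.24. The difference of the jkd effect between QC cells and meristem was tested as well: limma called 0 of 47 members higher or lower, beside 0% in each direction among all probe sets. At an unadjusted p under 0.05 there were 0 members, beside 2.17% of all probe sets higher and 5.75% lower.

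Other genes of the same pathway were read from a wider list of 65 replication genes and 19 histone genes, of which 28 and 9 had a probe set. At 24 h, 6 of 27 tested replication genes were higher than at 0 h and 3 lower. Among all probe sets 20.7% were higher and 27.5% lower. The median difference of the 27 was -0.14, against -0.22 for all probe sets and -0.75 for the 24 replication members. The wider list as a whole thus did not share the fall of the members. It was led by RPA70D (AT5G61000), an RPA subunit, at -3.56 ± 0.37, and the histone chaperone gene NAP1;1 (AT4G26110) at 3.50 ± 0.33. At 96 h 13 were higher and 1 lower, beside 24.7% higher and 27.7% lower among all probe sets. VIM1 (AT1G57820), which works with MET1, was higher by 3.83 ± 0.31, TOPII (AT3G23890), a topoisomerase, by 3.52 ± 0.46 and NAP1;1 by 2.87 ± 0.33, and RPA70D was lower by 2.88 ± 0.37. Of 7 other histone genes tested, 2 were higher and 3 lower at 24 h, and 2 were higher and 1 lower at 96 h.

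Most genes of G2 and mitosis, of which 11 were on the arrays, were lower at 24 h. At that time 7 were lower than at 0 h and 1 was higher, beside 27.5% lower and 20.7% higher among all probe sets. The gene higher was TES (AT3G43210), a kinesin gene, by 2.49 ± 0.38. The cyclin genes CYCB1;1 (AT4G37490) and CYCB1;3 (AT3G11520) differed by -2.21 ± 0.39 and -2.15 ± 0.44, and the kinase gene AUR1 (AT4G32830) by -2.27 ± 0.39. Between 96 h and 24 h 4 were higher and 0 lower, beside 1.97% higher and 1.89% lower among all probe sets. They were HIK (AT1G18370), a kinesin gene, at 2.51 ± 0.44, CDC20.1 (AT4G33270), an activator of mitotic protein breakdown, at 2.28 ± 0.42, CYCB1;1 at 1.84 ± 0.43 and the kinase gene CDKB2;1 (AT1G76540) at 1.38 ± 0.35. TOPII of the replication list was higher by 1.97 ± 0.50. Against wild type meristems, 7 of 11 G2 and mitosis genes were lower and 1 higher in the separate QC harvest. In the QC cells grown with jkd 8 were lower and 0 higher. Among all probe sets 31.3% were lower and 27% higher in the separate harvest, and 27.8% lower and 21.8% higher in the other. The wider replication list had 14 of 27 lower and 4 higher in the separate harvest, led by ASF1B (AT5G38110), a histone chaperone, at -1.81 ± 0.18, and 11 of 28 lower and 1 higher in the harvest grown with jkd.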

How the data were processed

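The authors deposited linear intensities, which the submitters' processing notes credit to MAS5, with 1 value for each probe set on an array. The version of MAS5, its scaling target, the array type and the build were not given in the sources used here. Symbols came from the RefSeq gene table of TAIR10.1. From these values log2(signal + 16) was computed without further normalization, and those probe sets were tested whose mean over the fitted arrays reached the 30th percentile, 11469 in each comparison, with limma 3.58.1 (lmFit and eBayes with trend and robust) in R 4.3.3. The model of the SCR arrays was tested on simulated data first, for 24 h against 0 h only. Other models were not tested in this way. A model held the 11 SCR arrays, to which the separate QC harvest was added for comparisons with the QC, and the other comparisons used the arrays of their own groups. The number of arrays limits the precision. Python 3.11.15 with matplotlib 3.10.9 drew the figures.

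Members and gene lists were chosen with earlier results of these data known. Every member with a row may be named. In most comparisons, values of each array were given for up to 3 members higher and 3 lower, by size among those past the threshold. Those of MCM3, TSO2, PCNA1, AT5G65360, AT4G40040 and AT3G53730 were given in some comparisons. At 48 h, and for wild type QC cells grown with jkd against meristems, differences were given without array values. At 72 h array values were given for MCM3 only. Array values of DPA at 24 h, and of HTB4, HTA2, HTA11, HTB11, AT3G53650 and AT5G02570 in the closing observations, were added after their values were seen. From the other lists up to 4 genes were named per comparison, by size. The cell type markers SCR, AIL6, AGL42, OPS, BHLH32, VND7, XCP1 and COBL2 were picked after their values were seen. The alternatives tried were other pseudocounts, no filter, quantile normalization, a fit of all 26 arrays, a replicate block, leaving out each array and the other wild type QC harvest. A search of promoters for E2F and histone motifs was planned and not run, as promoter sequences were not used here.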

Additional observations from a re-analysis of the deposited data

Results flagged for a closer look

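The separate wild type QC harvest differed from the wild type QC cells grown with jkd in 13 members, by a direct limma test of the difference between the harvests. Since the same meristems serve both, this is also the difference between their QC minus meristem values. The separate harvest was higher for RPA70B (AT5G08020) by 1.46, MCM3 (AT5G46280) by 1.17 and POLA3 (AT5G41880) by 1.05 on the log2 scale. It was lower for the histone genes HTA1 (AT5G54640) at -0.76, HTA6 (AT5G59870) at -0.93, HTB9 (AT3G45980) at -0.68, HTB11 (AT3G46030) at -0.72 and AT3G53650 at -1.10. The H3.3 genes AT4G40030, AT4G40040 and AT5G10980 stood at -0.64, -1.32 and -0.66, and the H4 genes AT3G53730 and AT5G59970 at -0.73 and -0.89. The signals of the harvests carry different numbers of decimals, and harvest and processing cannot be told apart. No group had the 4 arrays needed to look for a single array far from the rest.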

How the results depend on the processing

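Counts of members higher and lower kept within 1.5 times their value under most alternatives. For the alternatives and the fits without an array, here and above, the shares of all probe sets are not given. Changes in those counts are therefore not read as results about the members alone. With the replicate number as a block, 8 members were higher at 48 h (5 without it), 13 higher and 7 lower at 72 h (8 and 15), 13 higher between 96 h and 24 h (3), and 6 lower in the separate QC harvest than in the QC grown with jkd (10). The arrays share only a number: deviations of same-numbered arrays correlated at -0.11 to 0.18, and no pairing is stated. Quantile normalization gave 0 higher between 96 h and 24 h and 4 higher in jkd QC cells against jkd meristem (8), and moved the median of all probe sets at 24 h to 0.03, against -0.22. A fit of all 26 arrays gave 8 higher between 96 h and 24 h, 0 higher in the separate QC against the meristem (4) and 6 lower between the QC harvests.

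With the wild type QC grown with jkd in place of the separate harvest, the direction turned for AT5G54640 (HTA1) at 0 h against QC, to -0.11, and QC against meristem, to 0.0894. It turned for AT4G40040 in the same comparisons, to -1.04 and 0.61, for AT5G46280 (MCM3) and AT5G08020 (RPA70B) at 96 h against QC, to 0.17 and 0.16, and for AT5G66750 (DDM1) in QC against meristem, to -0.056. Under quantile normalization AT5G59970 in jkd QC against jkd meristem became -0.93. The cause was not tested. Among values of single members, 2620 kept direction and side of the threshold, 326 lost the call, 21 gained it and 8 turned.

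Leaving out each array in turn, the number higher and then lower ranged over 2 to 6 and 13 to 19 at 24 h, 3 to 7 and 11 to 17 at 48 h, 7 to 10 and 7 to 14 at 72 h, and 6 to 11 and 9 to 13 at 96 h. It was 0 to 1 and 0 between 96 h and 24 h, 6 to 13 and 8 to 12 for 0 h against QC, and 2 to 3 and 3 to 5 for 96 h against QC. It was 2 to 4 and 29 to 32 for the separate QC against meristem, 2 to 9 and 14 to 22 in jkd, and 0 to 5 and 2 to 9 between the QC harvests. A time left with 1 array was assumed to vary like the other groups. The jkd comparisons kept 0 throughout.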

Other observations

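Some members passed in few comparisons. HTB4 (AT5G59910), an H2B gene, had 1470.2, 1741 and 1222 at 0 h, 1276 and 2001 at 24 h and 2317 and 2873 at 96 h, and passed in no comparison with 0 h over time. HTA2 (AT4G27230) had 824, 673 and 994 in separate QC cells, against 1875, 1352 and 1374 in wild type meristems, and was lower there by 0.87 ± 0.18. HTA11 (AT3G54560) had 1050.4, 862 and 1317 in separate QC cells, against 3908, 2319.9 and 2649 in wild type meristems, and was lower by 1.43 ± 0.21.

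The 0 h arrays were unlike one another for several H2B genes. HTB11 (AT3G46030) read 569, 472 and 69.7 on arrays 1, 3 and 5, AT3G53650 read 123, 64.7 and 3.9, and AT5G02570 read 77.5, 46.2 and 8.4. Array 5 also had the highest plastid mean of the 3, at 10.01. Without it, 6 members were higher and 19 lower at 24 h, and 11 higher and 13 lower at 96 h.

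Summed signals of 4 epidermis markers were 223.1 to 928.9 at 0 h and 27.8 to 81.5 at 96 h. Those of 4 vascular markers were 43.1 to 99.8 at 0 h and 279.9 to 290.8 at 96 h. OPS carried most of the vascular rise, with 24.1, 11.9 and 20.1 at 0 h and 218.9 and 233.4 at 96 h. BHLH32 rose as well, and VND7 overlapped between these times. XCP1 went the other way, with 50.7, 20.8 and 7.2 at 0 h and 2.7 on each 96 h array. Summed signals of the 4 H3.1 probe sets were 1293.4 to 3931.5 at 0 h, 527.2 to 1010.9 at 24 h and 1636.3 to 2935.3 at 96 h.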
